A study of Populus tremula with 16 samples.

Results

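The dip group is a set of 51 gene IDs of aspen leaf whose average level was lower on 2 to 15 September than both before and after. Its members were chosen by the authors' normalised counts, in which each raw count had been divided by 1 factor per library. An ID was taken when its mean over the early dates and its mean over the late dates were both at least 10 and each at least 1.5 times its mean over the middle dates. Of the 19769 IDs in the normalised table, 3652 had early and late means of at least 10, and the 51 members came from these. The same limits turned round, with the middle mean at least 1.5 times both others, were met by 44 of the 3652 IDs. The dip itself is therefore a description of how the members were picked, and no test is given for it.

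The leaves were of Populus tremula, the European aspen, and 1 RNA library stood for each collection date of 2011. The early period held 27 July and 5, 19 and 31 August (n = 4), the middle period 2, 5, 9, 11, 13 and 15 September (n = 6), and the late period 18, 22, 26 and 28 September and 1 October (n = 5). A further late library, 19 September, differed from 18 September by less than the sampling noise and was left out. Nothing in the labels says how many trees or leaves a library holds, so dates stood in for replicates. A p-value here is measured against the spread among dates of a period, with counting error and any trend over those dates included. It gives no measure of the spread among trees on 1 date. Fewer cells of a type in a leaf and less RNA per cell cannot be told apart in such libraries.

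Autumn senescence is the ordered dismantling of the leaf before it is shed. Chloroplasts are broken down, chlorophyll is lost, and nitrogen and other nutrients are moved into stem and buds for the next spring. Leaves also answer to the weather and light of each day, so single collection dates can differ for reasons other than the season. The files do not pair the IDs with gene names, and no role is given to any member here. The labelled tissue could not be checked against marker genes for the same reason.

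By the rule itself the middle period was a low stretch for the group, but a sharp early September trough was rare. Each ID's log2(normalised count + 1) was set against its own mean over the 15 dates, and the median over the 51 members was taken for each date. It stood at 0.21, 0.78, 0.04 and 0.37 on the 4 early dates. On the middle dates it was -0.30, -0.28, -0.43, -0.53, -0.38 and -1.01. For the late period it was -0.28 (18 September), -0.17 (22 September) and 0.16 (26 September), then 1.08 on 28 September and 1.34 on the last date. The group was thus still below its own average on 18 and 22 September, and its highest values came on the last 2 dates. Over the 3652 IDs the same median stayed between -0.21 and 0.32 on all 15 dates. The rule picked members on these values, so nothing is read from the difference.

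**Figure D1:**
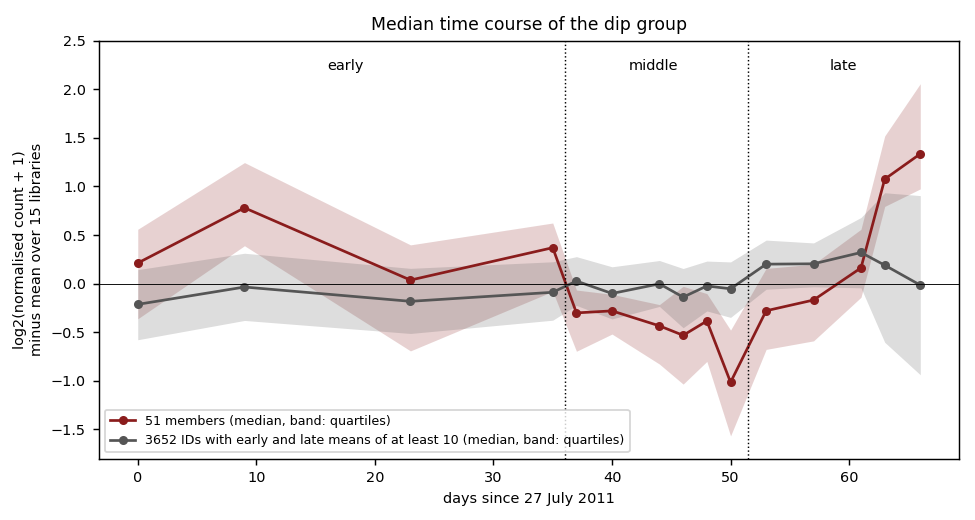
Median time course of the dip group. The y axis is log2(normalised count + 1) of each ID minus its own mean over 15 libraries, the x axis is days since 27 July 2011, lines are medians over 51 members or over 3652 IDs and bands are quartiles. The members' median reaches -1.01 on 15 September and 1.34 on 1 October, and the wider set stays between -0.21 and 0.32. The members were picked on these values.

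Of the 51 members, 1 had all 6 middle libraries below every early and every late library. Of the 3652 IDs, 2 did (0.0548%), and since the rule picked members on these same means nothing is read from the difference. In 15 members (29.4%) all middle libraries lay below every early one, against 6.87% of the 3652 IDs. In 6 members (11.8%) they lay below every late one, against 20.9% of the 3652 IDs. Set against the period means in place of single libraries, 40 members (78.4%, against 3.72%) had every middle library below both the early and the late mean, and 49 (96.1%, against 9.99%) had at least 5 of the 6 there. The rule picked members on these values, so nothing is read from any of these differences either.

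The single member without overlap was Potri.006G186200. Its normalised counts were 54.9, 40.5, 37.5 and 34.5 on the early dates, then 29.3, 30.6, 28.6, 23.4, 26.9 and 17.2 on the middle dates. On the late dates they were 37.6, 41.4, 45.1, 54.7 and 79.3. The level declined date by date through July and August, was lowest on 15 September and climbed on each later date. The early mean was 41.8 ± 9.07 (SD, n = 4), the middle mean 26.0 ± 4.97 (SD, n = 6) and the late mean 51.6 ± 16.7 (SD, n = 5), from 662, 531 and 716 summed raw counts.

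Potri.005G049500, named after its values were seen, came back at once and then sank again. It had 55.7, 38.4, 58.2 and 34.2 normalised counts early, 32.0, 31.5, 36.01, 19.7, 33.7 and 26.9 in the middle period, and 52.99, 45.6, 64.2, 39.2 and 32.9 late. Its value of 1 October was back inside the middle range, and so was its value of 31 August. The late mean of 47.0 ± 12.2 (SD, n = 5) and the early mean of 46.6 ± 12.1 (SD, n = 4) were nearly the same.

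**Figure D2:**
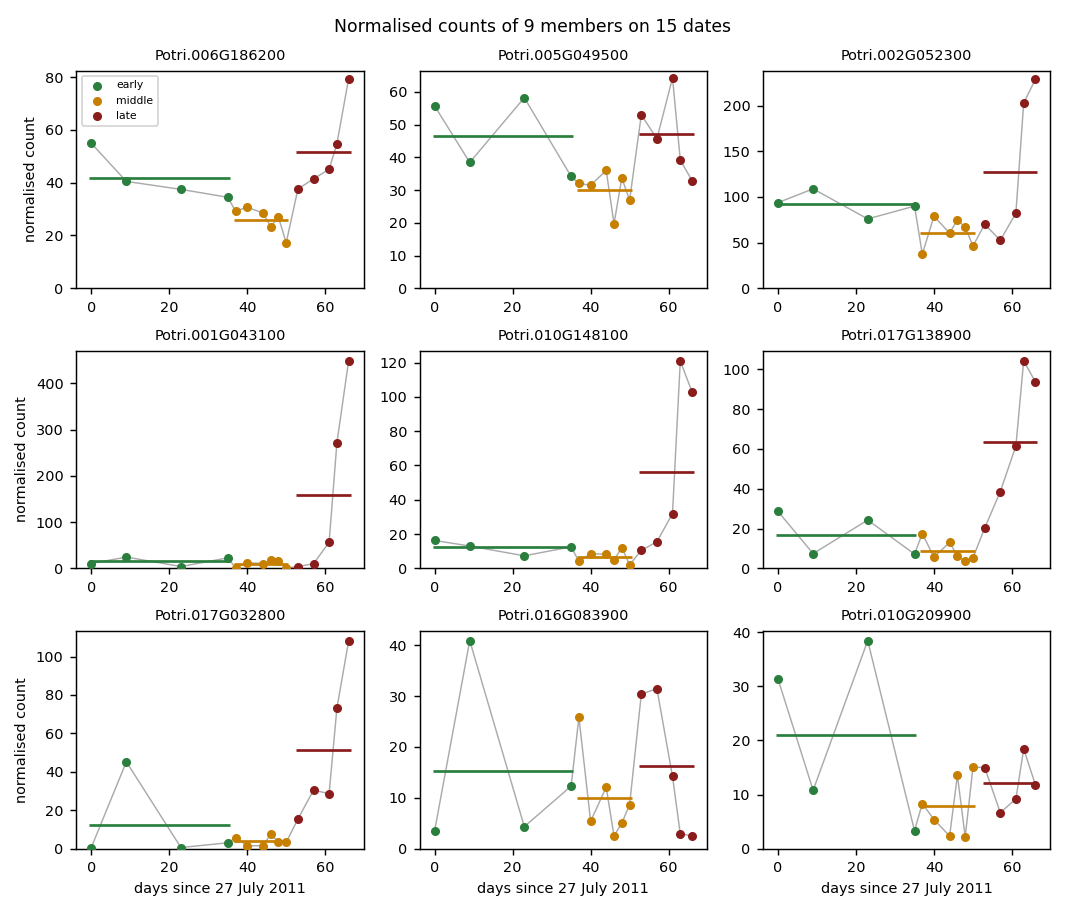
Normalised counts (y axis) of 9 members against days since 27 July 2011 (x axis). Each point is 1 library, coloured by period, and horizontal bars are period means. Potri.006G186200 is the member whose middle points all lie below the others, while Potri.001G043100 and Potri.010G148100 owe their late means mostly to the last dates.

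The late limb of the dip came from different dates in different members. In 20 members (39.2%, against 29.8% of the 3652 IDs) the mean of 18, 22 and 26 September was already at least 1.5 times the middle mean, with a median ratio of 2.11 and a range of 1.59 to 6.56. In 19 members that mean was above the middle mean by less, at 1.11 to 1.41 times. In the other 12 (23.5%, against 28.8% of the 3652 IDs) it was at or below the middle mean, at 0.322 to 0.976 times. These shares were near those of the 3652 IDs. For 31 of the 51 members, then, the late mean passed its limit only with 28 September and 1 October. These 31 are all the members outside the 39.2%, a class that held 29.8% of the 3652 IDs. Their number is therefore not read as a trait of the members. A mean of 18 to 26 September of at least 1.5 times the middle mean is what the other 20 have in common. Single dates or the early limb could still depart from a dip among them.

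Between the last 2 dates and 18 to 26 September the members differed by a median of 3.16-fold (range 0.107 to 17.6), higher on the last 2 dates, against a median of 0.884-fold over the 3652 IDs. The rule asked for a high late mean, so a step of this kind was favoured by the choice of members. In 30 members (58.8%) both last dates lay above every other library, against 28.3% of the 3652 IDs. In 27 (52.9%, against 19.5%) the highest of all libraries was 1 October. In 6 members (11.8%, against 55.0% of the 3652 IDs) the mean of the last 2 dates was below that of 18 to 26 September.

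**Figure D3:**
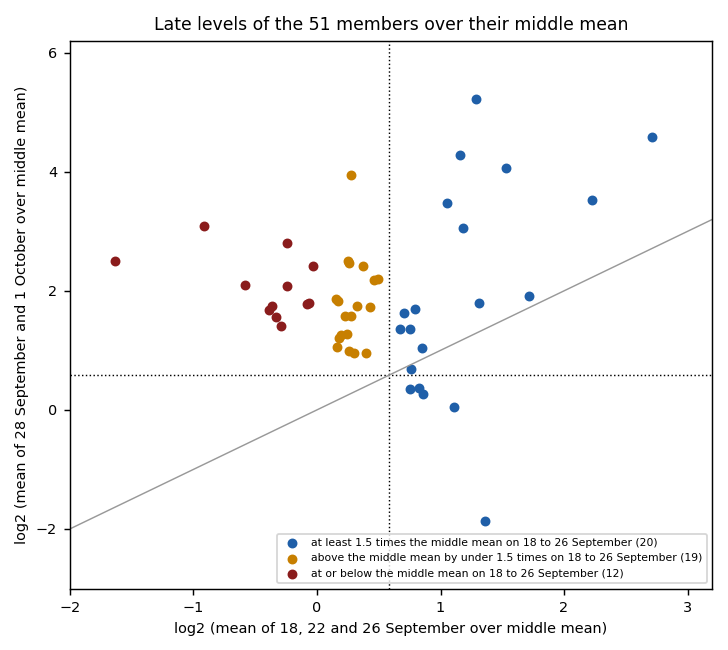
Late levels of the 51 members over their middle mean. The x axis is the log2 ratio of the mean of 18, 22 and 26 September to the middle mean, the y axis the log2 ratio of the mean of 28 September and 1 October to the middle mean, each point is 1 member, dotted lines mark 1.5-fold and the grey line marks equal ratios. Of the points, 20 lie at or right of the vertical dotted line and 6 lie below the grey line.

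Members that stayed low until the end of September could step up abruptly. Potri.006G109700, named after its values were seen, had 25.6, 18.4, 23.03 and 16.2 normalised counts early and 10.9, 11.1, 8.90, 9.84, 6.09 and 9.70 in the middle period. Late it had 4.64, 3.99 and 6.40 on 18, 22 and 26 September and then 97.9 and 61.6 on 28 September and 1 October. Its mean on the last 2 dates was 15.9 times that of 18 to 26 September, and its 2 lowest libraries, 18 and 22 September, were late ones.

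Potri.003G181900, also named after its values were seen, followed the same course at fewer counts. It had 12.5, 11.2, 9.36 and 10.2 early, 2.14, 5.96, 2.12, 7.38, 2.51 and 1.08 in the middle period, and 3.59, 1.99, 7.23, 57.6 and 51.47 late. Every early library was above every middle one. The middle values rest on 63 raw counts in all.

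Potri.T093900 and Potri.001G060100, named after their values were seen, showed the same late step from an even early level. Potri.T093900 had 32.9, 35.1, 23.5 and 34.5 early, 19.2, 15.6, 17.2, 17.2, 15.1 and 6.46 in the middle period, and 14.4, 9.97, 10.3, 46.6 and 50.6 late. Potri.001G060100 had 14.0, 18.9, 17.5 and 11.7 early, 8.12, 6.99, 3.39, 2.46, 3.94 and 7.54 in the middle period, and 5.28, 5.54, 5.01, 28.8 and 28.7 late. In both, every early library was above every middle one, and the first 3 late dates were inside the middle range.

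The opposite late course belonged to Potri.016G083900, named after its values were seen. It had 3.51, 40.9, 4.30 and 12.3 early, 25.8, 5.35, 12.1, 2.46, 5.02 and 8.62 in the middle period, and 30.4, 31.5, 14.2, 2.88 and 2.53 late. The last 2 dates, with 8 raw counts together, were 0.107 times the mean of 18 to 26 September. Middle and late libraries overlapped, and 5 August was the highest of all.

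**Figure D4:**
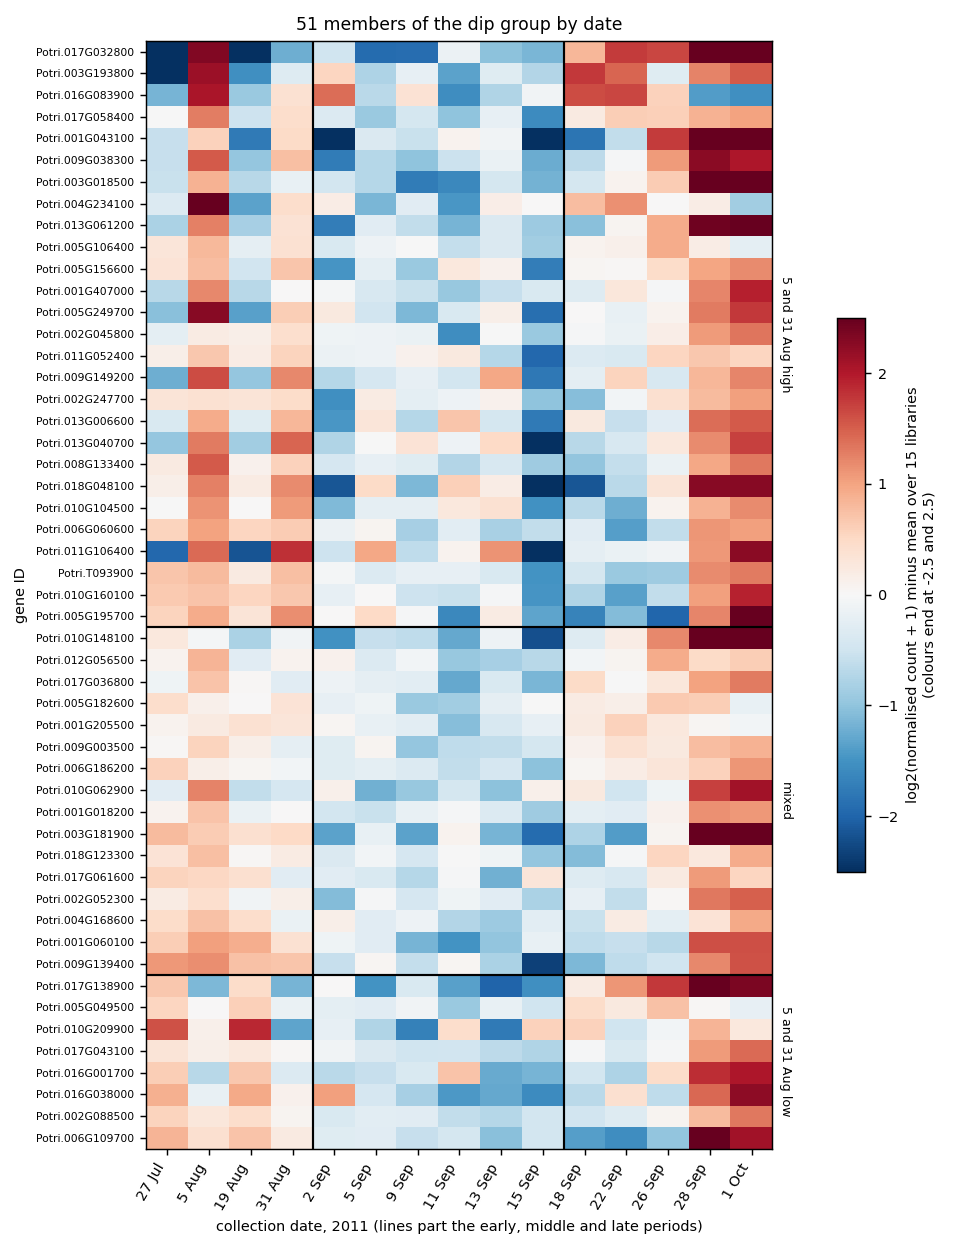
All 51 members (rows) on 15 dates (columns). Colour is log2(normalised count + 1) minus the member's mean over the 15 libraries, and rows are grouped by the order of the early dates: 27 members with 5 and 31 August above 27 July and 19 August, 16 with a mixed order and 8 with 5 and 31 August below. Red on 28 September and 1 October runs through most rows, and 15 September holds the lowest value of 21 rows.

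The early limb was uneven as well. In 27 members (52.9%) both 5 and 31 August were above both 27 July and 19 August, an order found in 35.8% of the 3652 IDs, and in 8 members (15.7%, against 16.6%) it was the reverse. In 32 members (62.7%, against 39.5% of the 3652 IDs) 5 August was the highest early date. It supplied a median of 32.6% of a member's early sum (range 11.0 to 91.9%), against 26.4% over the 3652 IDs. With 5 August left out of the early mean, 30 of the 51 (58.8%, against 8.13%) were still at least 1.5 times above the middle mean. In 9 members (17.6%, against 4.33%) each of the 4 early libraries was at least 1.5 times the middle mean. The rule picked members on the early mean, so nothing is read from these differences.

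The clearest case of a single early date was Potri.017G032800, which also had the lowest ratio of the middle mean to the smaller of the others and was named after its values were seen. It had 0.502, 45.2, 0.506 and 3.00 normalised counts early, 5.55, 1.44, 1.48, 7.38, 3.58 and 3.23 in the middle period and 15.4, 30.4, 28.6, 73.1 and 108 late. Without 5 August its early mean was 1.33, below the middle mean of 3.78. Its middle libraries, with 59 raw counts in all, were below every late library and above 2 of the 4 early ones.

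Potri.003G193800, also named after its values were seen, had 0, 37.5, 2.02 and 5.99 early, 11.7, 4.11, 6.57, 2.46, 6.09 and 4.31 in the middle period, and 28.7, 23, 6.12, 19.6 and 24.5 late. On 27 July it had no count, where 3 counts would be 0.752 normalised counts. 5 August was the highest of all its libraries, 27 July and 19 August were below every middle one, and 31 August was inside the middle range.

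Potri.010G209900, named after its values were seen, had the reverse early order. It had 31.3, 10.8, 38.5 and 3.30 early, 8.33, 5.35, 2.33, 13.5, 2.15 and 15.1 in the middle period, and 15.0, 6.65, 9.18, 18.4 and 11.8 late. The values of 27 July and 19 August were above every middle library, and those of 5 and 31 August were inside the middle range.

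The members were also sorted by an order of dates inside the middle period. The rule used the mean of these dates and not their order, but low values on 2 or 15 September favour membership. In 21 members (41.2%, against 7.89% of the 3652 IDs) 15 September was the lowest library, and the members' median raw count there was 7. Both 5 and 13 September were above both 2 and 15 September in 15 of the 27 members with high values on 5 and 31 August (55.6%), against 20.4% of the 1308 of the 3652 IDs with the same order in August. This held for 4 of the 16 members of mixed order (25%, against 18.1% of 1739 IDs) and for 0 of the 8 members of the reverse order, against 13.4% of 605 IDs. Over all members it held for 19 of 51 (37.3%), and over the 3652 IDs for 18.1%. The dates were picked after the values were seen, the rule bears on their order, and no test was made. Nothing is read from these differences. Potri.011G106400 shows the alternation, with 1.00, 20.01, 0.759 and 26.7 early and 4.49, 14.4, 4.02, 7.38, 16.1 and 0 in the middle period. Its 15 September library had no count, where 3 counts would be 3.23 normalised counts.

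Members did not move as 1 block. Over the 15 dates the median Spearman correlation between members was 0.52 over 1275 pairs, with a range of -0.65 to 0.94. It was 0.30 between the members with high and those with low values on 5 and 31 August. Those sets were sorted by opposite orders of the early dates, which lowers the correlation between them. Nothing is read from that value. All of these correlations are descriptions over dates that share libraries, and choosing IDs with a common dip raises them. They were not set beside those of the 3652 IDs.

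Within the middle period no member had a called change. The mean of 11, 13 and 15 September was below that of 2, 5 and 9 September in 32 of 51 members (62.7%), against 56.7% of the 3652 IDs. By edgeR's quasi-likelihood test on raw counts at an adjusted p of 0.05, 0 of 51 members were called higher and 0 lower, and over all 18033 IDs tested 0% were called in either direction. At an unadjusted p under 0.05 there were 1 of 51 members and 643 of all IDs (3.57%), the member being lower, as were 1.93% of all IDs. DESeq2 also called 0 members and 0% of all IDs. The member was Potri.016G038000, named after its values were seen, with a log2 change of -1.82 (SE 0.68, edgeR adjusted p = 1). It had 17.9 normalised counts on 2 September, 5.96 and 4.24 on 5 and 9 September and 2.46, 2.87 and 2.15 on the last 3 middle dates. Its value on 2 September was above all of its early ones, which were 16.3, 7.19, 16.96 and 8.99. The last 3 middle dates rest on 12 raw counts in all, against 133 on the first 3. On 11 and 15 September it was under the level of 3 counts, which is 3.69 and 3.23 normalised counts there. Without a filter on low counts the edgeR call was made (adjusted p = 0.0446), as it was for 0.0594% of the 30299 IDs then tested, and over all alternatives the adjusted p ran from 0.0446 to 1. Without 2 September the log2 change was -0.96.

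The middle libraries were unequal in depth. Libraries held 719419 to 6729131 raw counts, with 719419 on 11 September and 836643 on 15 September. The last 2 dates were shallow too, with 1162665 on 28 September and 756966 on 1 October. The late dates before them held 3271054 to 4344936, and the members' median raw count was 54 on 28 September and 43 on 1 October. The median raw count over the members was 8 on 11 September and 7 on 15 September, against 25 to 50 on the other middle dates, and 30 and 38 of the 51 members had fewer than 10 counts there. The summed normalised count of the members was 642 on 11 September and 467 on 15 September, and 632 to 711 on the other middle dates. The part of depth in the low values of 15 September was not tested. With 11 and 15 September left out, 42 IDs met the rule, and 36 of them were members.

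The rule placed the late and the early mean above the middle mean without comparing them with each other. It still set limits on both means, and so bears on how often a member can be called. No difference between the members' share of calls and the share over all IDs is therefore read as a trait of the members. By edgeR's quasi-likelihood test in 1 fit of the 15 libraries, 4 of 51 members were called higher late and 0 lower, and 47 were not called. Over all 15583 IDs tested, 29.3% were called higher and 28.9% lower. At an unadjusted p under 0.05 there were 5 higher and 0 lower members, against 31.6% and 31.2% of all IDs. DESeq2 called 4 members higher and 0 lower, against 27.1% and 32.4% of all IDs. The median log2 change was 0.19 for the members, with 32 above 0 and 19 below, and 0.01 for all IDs. All IDs include many that the rule could not pick. In the authors' table the late mean was above the early mean in 34 of 51 members and in 2411 of the 3652 IDs. The median ratio of late to early mean was 1.16 in members and 1.28 over the 3652 IDs. A greater late rise in members than in the 3652 IDs is therefore not read from these values. With raw counts scaled by library totals alone, 29 members were called higher, against 53.1% of all IDs. Without 5 August 9 members were, against 26.4%, and without 1 October 2 were called lower, against 29.1%. Library totals alone moved the median log2 ratio of late to early over the 3652 IDs to 1.32, against 0.36 in the authors' table. Whether neighbouring dates vary independently was not tested.

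The largest called change was that of Potri.001G043100, with a log2 change of 3.37 (SE 1.09, edgeR adjusted p = 0.0138). It had 3.80, 10.2, 56.5, 271 and 448 normalised counts late, against 10.5, 24.5, 4.05 and 22.8 early. In the middle period it had 1.495, 12.3, 10.6, 17.2, 15.1 and 1.08. Late and early libraries overlapped, since 18 September was below every early library and 22 September was inside the early range, while 26 September and later dates were above it.

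Potri.003G018500 had 15.0, 21.9, 32.8, 173 and 231 normalised counts late, against 13.8, 38.7, 12.4 and 18.0 early, and 14.7, 12.3, 5.51, 6.15, 15.1 and 8.62 in the middle period. Its log2 change of 2.19 (SE 0.70, edgeR adjusted p = 0.0130) was no longer called with the late and early libraries alone in the fit (adjusted p = 0.0539, the highest of a range that began at 0.00150). The 3 first late dates were inside the early range.

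Potri.010G148100 had 10.6, 15.5, 32.0, 121 and 103 normalised counts late, against 16.3, 13.0, 7.34 and 12.6 early, and 4.06, 8.63, 8.26, 4.92, 12.2 and 2.15 in the middle period. Its log2 change was 2.17 (SE 0.62, edgeR adjusted p = 0.00660). From 26 September it was above every earlier library.

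Potri.017G138900 had 20.3, 38.6, 61.5, 104 and 93.7 normalised counts late, against 28.6, 7.42, 24.3 and 7.19 early, and 17.5, 5.55, 13.1, 6.15, 3.58 and 5.39 in the middle period. Its log2 change was 1.89 (SE 0.56, edgeR adjusted p = 0.00821). Its mean of 18 to 26 September was 4.69 times its middle mean, and every late library was above every middle one. The early dates alternated, with 27 July and 19 August high.

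The 5 members with the most counts, not corrected for gene length, were Potri.002G052300, Potri.001G043100, Potri.017G043100, Potri.010G062900 and Potri.009G149200. Apart from Potri.001G043100, none of them was called between late and early leaves in the fit with TMM scaling and all 15 libraries. With library totals alone, edgeR called Potri.002G052300 (log2 change 1.56, adjusted p = 0.00902), Potri.017G043100 (1.46, adjusted p = 0.00568) and Potri.010G062900 (1.98, adjusted p = 0.0117).

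Potri.002G052300 had 93.8, 109, 75.9 and 89.9 normalised counts early, 37.4, 78.9, 60.4, 75.02, 66.7 and 46.3 in the middle period, and 70.1, 52.5, 82.3, 203 and 229 late. Its middle mean of 60.8 ± 16.3 (SD, n = 6) was close to its mean of 68.3 ± 15.0 on 18 to 26 September (SD, n = 3). The last 2 dates stood apart from all others. Late minus early, its log2 change was 0.47 (SE 0.41, edgeR adjusted p = 0.335, in a range of 0.00902 to 0.826 over the alternatives).

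Potri.017G043100 had 65.2, 57.8, 62.3 and 53 early, 48.9, 39.9, 36.4, 36.9, 32.6 and 30.2 in the middle period, and 50.5, 39.7, 50.6, 110 and 140 late. It had the tightest early dates of these 5, at 59.6 ± 5.31 (SD, n = 4), all of them above the middle libraries. Late minus early, its log2 change was 0.38 (SE 0.34, edgeR adjusted p = 0.351, in a range of 0.00568 to 0.950 over the alternatives).

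Potri.010G062900 and Potri.009G149200 leaned on August dates. Potri.010G062900 had 32.9, 96.4, 26.1 and 29.7 early, 44.2, 16.9, 20.3, 29.5, 19.4 and 44.2 in the middle period, and 47.7, 28.1, 37.3, 135 and 175 late. Without 5 August its early mean was 29.5, about its middle mean of 29.1, and its late minus early change was called (log2 change 1.42, edgeR adjusted p = 0.0422, in a range of 0.0117 to 0.546 over the alternatives). Potri.009G149200 had 16.3, 125, 19.7 and 92.6 early, 23.7, 29.4, 34.1, 28.3, 78.1 and 10.8 in the middle period, and 33.1, 58.3, 29.8, 71.4 and 93.7 late. All 3 of its periods overlapped, and its late minus early log2 change was -0.15, 0.34 without 5 August and 0.91 with library totals alone, none of them called.

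Low means were common among the members and among the 3652 IDs alike. The smaller of the early and late means was under 20 in 34 of 51 members (66.7%), against a similar 58.8% of the 3652 IDs. The mean over 15 libraries had a median of 14.7 in members and 25.9 in the 3652 IDs. That mean includes the middle dates, which the rule kept low in members. Neither value is read as a trait of the members. Early means were 1.52 to 3.25 times the middle mean (median 1.84) and late means 1.502 to 16.4 times (median 2.09). Just inside the limit were Potri.004G168600 at 1.502-fold and Potri.011G052400 at 1.514-fold, and just outside were Potri.017G084600 at 1.494-fold and Potri.003G204300 at 1.490-fold, each by the smaller of its 2 folds.

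With the fold limit raised to 2, 13 IDs remained, all of them members, and with the floor raised to 30 there were 9. Leaving out 1 library at a time, 31 to 60 IDs met the rule, and 9 of the 51 members were kept in all 15 such settings. Without 5 August 31 IDs met it, 27 of them members. With 5 August, 28 September and 1 October all left out, 14 IDs met it, 8 of them members, among them Potri.006G186200, Potri.005G049500, Potri.010G148100 and Potri.017G138900. The scaling mattered too. With library totals alone in place of the authors' factors, 10 IDs met the rule, 6 of them members. That scaling moved the median log2 ratio of middle to early over the 3652 IDs to 0.73, against 0.07 in the authors' table. The members' median was 0.93 below that median with library totals and 0.94 below it in the authors' table. A scaling moves all IDs of a library by the same factor, and members were chosen on this ratio. This gap was thus nearly fixed beforehand, and nothing is read from it. With library totals alone the middle mean was below the early mean in 42 members, against 51 in the authors' table.

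The prefixes of the IDs were spread over the numbering. Prefixes 005 and 017 held 6 members each. The 6 with prefix 017 were 11.8% of the members, against 2.52% of the 3652 IDs, and the 6 with prefix 005 were 11.8% against 6.52%. No members were next to each other in number, and the nearest pair, Potri.017G058400 and Potri.017G061600, was 32 numbering steps of 100 apart. Of the 6 members whose middle libraries lay below every late library, 4 carried prefix 017. No test was made of these counts, which were picked after they were seen.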

How the data were processed

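RNA-seq libraries of aspen leaves from 16 dates were used. The authors deposited raw read counts for 41335 gene IDs, and 16 single library tables held the same counts. They also deposited a normalised signal for 19769 IDs. Multiplied by 1 factor per library, 99.98% of its values gave the raw count within 0.01, which was inferred from the values. STAR 2.4, HTSeq, Trimmomatic 1.0, FastQC 1.0 and CASAVA 1.8.2 are named, without a role, per the submitters' processing notes. The build, annotation and strand setting were not given in the sources used here. IDs that share reads with a copy or an overlapping gene are therefore uncertain.

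The scatter between 18 and 19 September was 0.618 times that of binomial sampling, against 1.82 or more in the other pairs. None of the IDs, 18378 of which were detected on 19 September, was counted more often there than on 18 September, so the deeper library alone was used.

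Members were found by the stated rule in the deposited values. The tests on raw counts used edgeR 4.0.16 under R 4.3.3 (filterByExpr with a minimum count of 10 and a minimum total of 15, TMM, glmQLFit, glmQLFTest, Benjamini-Hochberg). All 51 members passed this filter in both fits. Late minus early came from a fit of 3 periods, and the 3 last minus the 3 first middle dates from a fit of 5 groups. SE is the log2 change over the root of F. Scripts were tested on simulated data. DESeq2 1.42.0 was an alternative. Floors are 3 counts and cover counting error only, as far as reads are independent molecules, whereas SDs hold the whole spread between dates.

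IDs were named by being the member without overlap, the 5 with most counts, the largest called changes, or the nearest to the fold limit. Others are said to be named after their values were seen, and Potri.017G138900 and Potri.011G106400 were too. Lists of gene families could not be applied without gene names. The members and lists were chosen with earlier results of these data known.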

Additional observations from a re-analysis of the deposited data

Results flagged for a closer look

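In 5 of 42 groups of 4 to 6 libraries, 1 date stood far from the rest. Chance gives about 1 in 20 in groups not chosen by their values, but the members were chosen on means of these same values and Potri.017G032800 and Potri.016G038000 were named after theirs were seen, so the count is not read against it. Potri.017G032800 had 45.2 normalised counts on 5 August (201 raw counts), and the nearest early date had 3.00. Potri.010G062900 had 96.4 on 5 August (429 raw counts), and the nearest early date had 32.9. Potri.009G149200 had 78.1 on 13 September (218 raw counts), and the nearest middle date had 34.1. Potri.016G038000 had 17.9 on 2 September (84 raw counts), and the nearest middle date had 5.96. The sum over all 51 members was 467 on 15 September (433 raw counts), and the nearest middle date had 632.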

How the results depend on the processing

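The number of IDs that met the rule was 51 and moved by more than 1.5 times under several settings. It was 26 with medians over dates in place of means, 10 with library totals alone, 13 with a fold limit of 2, 9 with a floor of 30 and 26 with the late period limited to 18 to 26 September. It was 83 with the middle period limited to 11 to 15 September. Settings added after seeing the data gave 14 without 5 August, 28 September and 1 October, and 12 without these and 11 and 15 September. Leaving out 1 library at a time gave 31 (without 5 August) to 60. The fold limit and the floor lower the count by construction, and the cause of the other moves was not tested.

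The count of members without overlap was 1, and 1 to 3 with 1 library left out, 0 with library totals alone and 2 with DESeq2 size factors. Late minus early, 4 to 9 members were called higher with 1 library left out (9 without 5 August) and 0 to 2 lower (2 without 1 October), and 29 higher with library totals alone, against 53.1% of all IDs. Within the middle period, 1 member was called lower without a filter on low counts, as were 0.0594% of all IDs tested. Of 273 late minus early values of named members under alternatives, 254 kept their direction and their side of the threshold, 1 lost its call, 8 gained one and 10 changed sign. Of 272 values within the middle period, 257 kept both, 1 gained a call and 14 changed sign. Of these sign changes, 0 were of a called value. Potri.017G032800 gained a call without 5 August (log2 change 5.17, edgeR adjusted p = 0.000127), with adjusted p from 0.000127 to 0.181 over its alternatives.

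The late minus early log2 changes that changed sign were those of Potri.009G149200 (-0.15, against 0.91 with library totals alone and -0.47 to 0.34 with 1 library left out), Potri.010G209900 (-0.82, against 0.16 with library totals alone), Potri.016G083900 (0.16, against -0.036 by DESeq2 and -0.19 to 1.31 with 1 library left out) and Potri.016G038000 (0.40, against -0.26 to 0.69 with 1 library left out). Within the middle period, log2 changes of the last 3 minus the first 3 dates changed sign for Potri.003G018500 (0.015, against -0.029 by DESeq2, -0.046 without a filter on low counts and -0.53 to 0.29 with 1 library left out). With 1 library left out they ran from -0.15 to 0.36 for Potri.002G052300, -0.22 to 0.69 for Potri.010G062900, -0.58 to 0.91 for Potri.009G149200 and -0.99 to 0.45 for Potri.010G148100. The cause was not tested.

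No paired analysis was possible because the labels give a date and no replicate number. The shallow libraries of 11, 15 and 28 September and 1 October limit single values. There 3 counts are 3.69, 3.23, 1.73 and 2.53 normalised counts.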
